A study of Mus musculus with 4 samples.

Results

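Six2, Six4, Eya1, Eya2, Eya4 and Dach1, which belong to the Six-Eya-Dach gene network, were followed in single cells of the Tbx1Cre lineage. The genes were given by name and matched by Ensembl identifier in each of the 4 gene tables, and they are 6 of the 27514 genes that those tables share. SIX-family proteins are homeodomain transcription factors, EYA proteins are coactivators with a phosphatase domain that have no DNA binding of their own, and DACH proteins are nuclear factors best known as corepressors. SIX-family factors recruit EYA proteins to enhancers, often together with PAX factors, and DACH proteins can turn the same targets off. In the mouse head and pharyngeal region the network is known for its roles in the otic, thymic and muscle primordia, and Six2 is also known from the mesenchyme of the face and from kidney progenitors.

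In all, 4 groups of 1 library each were compared. Control embryos (Ctrl) were Tbx1Cre/+;Rosa26-GFPflox/+ and mutant embryos (cKO) were Tbx1Cre/flox;Rosa26-GFPflox/+, each at embryonic day (E) 8.5 and E9.5, on a Swiss Webster background. Because Cre sits in the Tbx1 locus and disrupts it, Ctrl embryos carried 1 functional Tbx1 copy and cKO embryos kept the other only in cells without Cre activity. Tbx1 encodes a T-box factor needed in the pharyngeal apparatus, and the question of the design is how its loss changes the progeny of Tbx1-expressing cells. Tissue was pooled from several embryos per library. It was the upper part of the body at E8.5 and, per the labels, the pharyngeal apparatus with the heart at E9.5, where the study's sample list adds the back, so stage and dissection cannot be told apart. Live GFP-positive cells, which are those that Cre had marked, were sorted and sequenced with droplet-based 3′ counting.

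The windows around the transcription start of 3 members are shown first, Six2 and Eya4 because the called differences between Ctrl and cKO were in these genes, and Six4 because 1 of its 2 listed start sites has a window with a match to a SIX-family binding motif. Eya4 also has 2 listed starts, and 1 window per gene is shown. Each is written 5′ to 3′ on the gene's own strand (the minus strand of GRCm38.p6, RefSeq), from 250 bases before to 50 bases after the start. Capitals mark the match to the MEF3 motif, bound by SIX-family factors, TCAGGTTTC, which lies on the opposite strand and so reads GAAACCTGA here.
Six2 (chr17:85688205-85688504): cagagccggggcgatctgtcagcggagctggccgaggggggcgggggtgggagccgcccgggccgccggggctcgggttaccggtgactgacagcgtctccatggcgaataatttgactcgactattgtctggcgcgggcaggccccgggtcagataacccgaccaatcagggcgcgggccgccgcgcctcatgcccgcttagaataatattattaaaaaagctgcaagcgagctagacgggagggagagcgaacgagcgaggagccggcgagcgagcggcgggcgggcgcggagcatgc
Six4 (chr12:73113196-73113495): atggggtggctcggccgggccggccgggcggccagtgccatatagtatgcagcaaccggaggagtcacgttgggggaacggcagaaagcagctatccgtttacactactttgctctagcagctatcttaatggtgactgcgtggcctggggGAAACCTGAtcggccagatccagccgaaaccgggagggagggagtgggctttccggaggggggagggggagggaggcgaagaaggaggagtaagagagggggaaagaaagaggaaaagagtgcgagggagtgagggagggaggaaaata
Eya4 (chr10:23349894-23350193): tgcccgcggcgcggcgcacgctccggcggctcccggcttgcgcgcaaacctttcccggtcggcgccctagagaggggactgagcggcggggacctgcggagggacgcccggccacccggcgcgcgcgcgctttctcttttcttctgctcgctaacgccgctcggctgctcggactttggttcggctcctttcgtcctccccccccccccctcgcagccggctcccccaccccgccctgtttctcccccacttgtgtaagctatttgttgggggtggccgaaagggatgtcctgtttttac
The Six4 match covers bases 152 to 160 of its window and ends 90 bases before the start. The window of the other Six4 start (chr12:73113376-73113675) holds no match. Of 32851 such windows in the RefSeq table, 141 (0.429%) hold the MEF3 motif on either strand. The T-box core motif GGTGTGA, with its reverse complement TCACACC, is in 1307 windows (3.98%), and in none of the 6 windows that belong to the 4 members with an entry (Six2, Six4, Eya4 and Dach1). GC content was 67.3% in the Six2 window, 60.0% in the Six4 window and 69.3% in the Eya4 window. The genes themselves lie at chr17:85662736-85688254 (Six2), chr12:73099609-73114031 (Six4), chr1:14168953-14311035 (Eya1), chr2:165595028-165771727 (Eya2), chr10:23102962-23350838 (Eya4) and chr14:97786846-98169765 (Dach1).

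The libraries held 1434 cells (Ctrl E8.5), 1090 cells (cKO E8.5), 5453 cells (Ctrl E9.5) and 6266 cells (cKO E9.5), with between 25391654 and 104773150 unique molecular identifiers (UMIs, which count captured mRNA molecules) per library and a median of 15887.5 to 23883 UMIs per cell. Levels are UMIs per 1000000 UMIs of the shared genes (UPM), summed over the cells of a group. With 1 library per group there was no replicate within a group, no test of genotype or stage was made, and the 95% intervals given here cover counting error only. A gene was compared when both sums together held at least 20 UMIs and both groups at least 50 cells, and it was called different when the ratio was at least 2-fold with an interval that excluded no change. Calls used ratios that were not centred on the median gene. Tbx1 itself was at 86.4 UPM in Ctrl and 118 UPM in cKO at E8.5, and at 103 and 134 UPM at E9.5. Its level was thus not lower in the mutant libraries, but 3′ counts read the end of the transcript and the sources used here do not place the deleted part, so it checks no label. Barcodes shared by a pair of libraries numbered 55 for Ctrl and cKO at E9.5, and 2 to 10 for the other pairs. The cKO E9.5 library had been counted on a gene table of 31053 genes and the others on one of 27998, so at E9.5 genotype, library and gene table cannot be told apart. At E9.5 the median log2 ratio of cKO to Ctrl over all genes was -0.26 over all cells and between -0.20 and -0.23 in the gates, and ratios at that stage are to be read against it. At E8.5 the median was 0.04.

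Cells were placed in groups, called gates, by how many of a list of marker genes they expressed. The gates described were branchiomeric muscle (BrM, the progenitors of jaw and face muscle), multilineage progenitor (MLP), anterior second heart field (aSHF), somitic, mesenchyme, epithelial, endothelial, cardiomyocyte and neuroblast, with endoderm, otic, surface ectoderm and other cells inside the epithelial gate. Posterior second heart field, neural progenitor, neural crest and blood gates took cells as well. Of these only the posterior second heart field held at least 50 cells, in cKO E9.5 (81 cells). No marker of a gate was at 0 in it. In the BrM gate and in most others each marker was at least 2-fold above the remaining cells. The gates select cells by these same markers, so such an excess follows from the rule and does not check the cell type. In the MLP gate, which requires Arg1 and counts Tbx1 among its 5 markers, the 2-fold excess held for 2 markers in each E8.5 library. At E9.5 it held for 3 in the control and 4 in the mutant library. This gate, like the others, is described by its rule rather than as an established cell type. The excess held for 3 of 6 mesenchyme markers in each E8.5 library and 5 of 6 in cKO E9.5, for 4 of 5 endoderm markers in Ctrl E9.5, and for 5 (Ctrl E8.5), 4 (cKO E8.5 and Ctrl E9.5) or 3 (cKO E9.5) of 5 somitic markers. Cells that passed more than 1 gate went to the first in a fixed order. They were 39.9% of cells in cKO E8.5 and 17.9% to 18.6% in the other libraries. At E8.5, 44.1% of Ctrl cells and 25.0% of cKO cells passed no gate, at median depths of 17223 and 23883 UMIs per cell. Gates count detected markers, so at E8.5 the gates of Ctrl and cKO, and the cells in no gate, may hold differently selected cells. At E9.5 the epithelial gate held 13.8% of Ctrl cells and 3.37% of cKO cells, and the endothelial gate 7.32% and 1.84%. The MLP gate held 1.72% and 5.92%, and mesenchyme 35.3% and 46.8%. The part of this make-up in the ratios over all cells was not tested.

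**Figure D1:**
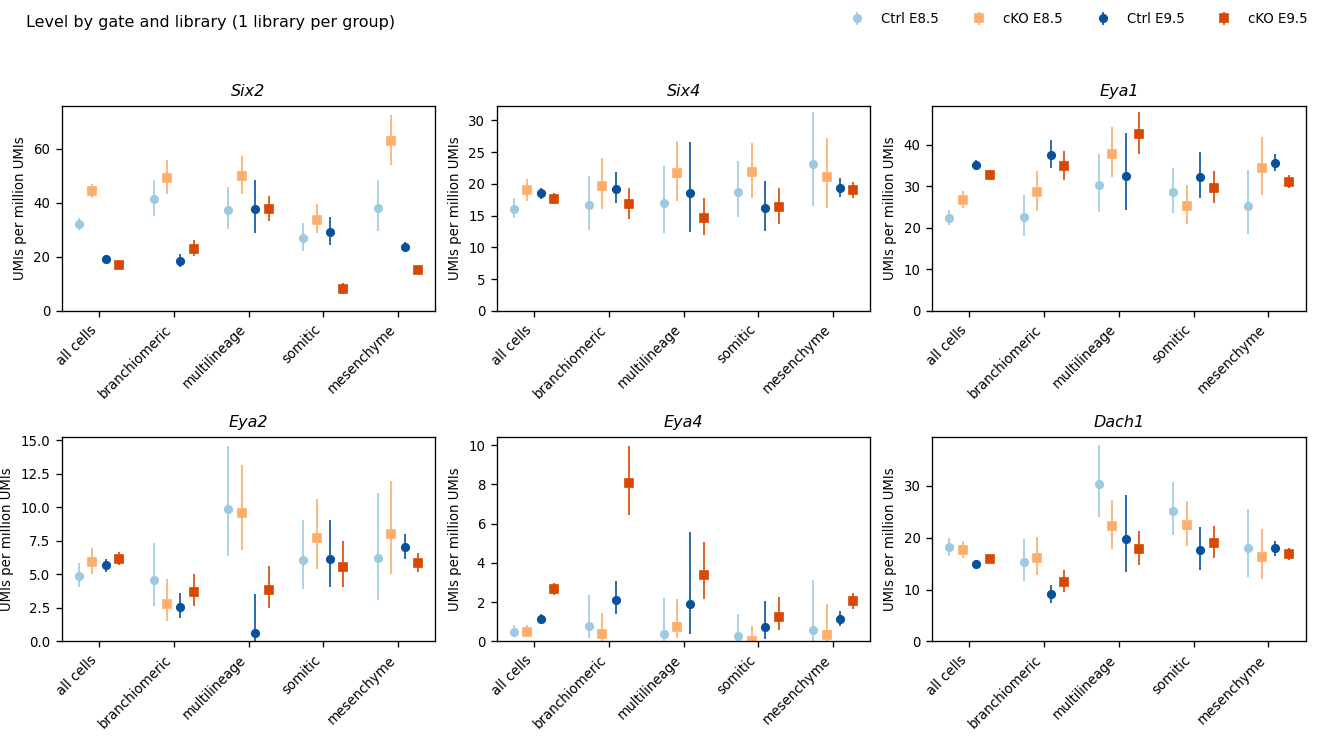
Level of each member in the 4 libraries, in UPM (1 panel per gene), over all cells and in the branchiomeric muscle, multilineage progenitor, somitic and mesenchyme gates. Bars on the points are exact 95% Poisson intervals, which cover counting error only. Six2 in the somitic gate drops to 8.19 UPM in cKO at E9.5, and Eya4 in the muscle gate reaches 8.06 UPM in the same library.

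Six2, a SIX-family factor that keeps progenitors undifferentiated in the kidney, was highest at E8.5. Over all cells its level was 32.3 UPM in Ctrl and 44.4 UPM in cKO at E8.5, and 19.0 UPM in Ctrl and 17.1 UPM in cKO at E9.5. The E8.5 levels lay above both E9.5 levels. The log2 ratio of cKO to Ctrl was 0.46 (0.33 to 0.59) at E8.5. At E9.5 it was -0.15 (-0.25 to -0.06), above the median of all genes, and it became 0.11 after centring on that median or with TMM factors.

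At E9.5 the level of Six2 ranged widely between gates. For every member, orders of levels are given over the gates with at least 50 cells in a library. In Ctrl it was highest in the MLP gate at 37.7 UPM (28.7 to 48.6), followed by the somitic gate at 29.2 UPM (24.3 to 34.9) and mesenchyme at 23.7 UPM (22.0 to 25.4), and it was lowest in cardiomyocytes at 2.52 UPM and in endothelial cells at 2.93 UPM. In cKO the MLP gate was again highest, at 37.7 UPM (33.2 to 42.6), and endothelial cells lowest, at 5.31 UPM. Against the remaining cells of its library, the MLP gate held 2.01-fold more Six2 in Ctrl and 2.40-fold more in cKO. Of the 10 pairs of neighbours in the Ctrl order, 8 had an interval that included no difference, so the order between the MLP and somitic gates, for example, is not settled.

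In the somitic gate Six2 was lower in cKO at E9.5. The gate held 123 Six2 UMIs in 241 Ctrl cells (29.2 UPM) and 66 UMIs in 437 cKO cells (8.19 UPM), a log2 ratio of -1.84 (-2.29 to -1.39). Cells with at least 10000 UMIs were thinned to that number and shallower cells were left out. After this, 22.1% of Ctrl cells and 8.06% of cKO cells kept a Six2 UMI, against 2.13% and 1.98% of endothelial cells. Median depths were 16458 and 17005 UMIs per cell in the somitic gate and 19952 and 16907 in the endothelial gate. Six2 was 1 of 5 members compared in this gate, and the only one called, in a gate where 4.66% of all genes were called lower and 3.11% higher. Most cells of this gate passed further gates as well. In the 52 Ctrl and 72 cKO cells that passed the somitic gate alone the log2 ratio was -0.31 (-1.40 to 0.80), from 15 and 17 UMIs respectively. Other somitic genes also differed between both libraries in this gate. Pax3, a PAX factor of the dorsal somite and of migrating muscle progenitors, had 0 UMIs in Ctrl and 89 in cKO. Pax1, a PAX factor of the sclerotome, was at 2.14 UPM in Ctrl and 8.81 UPM in cKO, and Foxc2, a gate marker, was at 171 and 116 UPM. The part of the gate's make-up in the Six2 difference was not tested.

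Mesenchyme, the largest gate at E9.5, also held less Six2 in cKO. The level was 23.7 UPM in Ctrl (774 UMIs in 1923 cells) and 15.0 UPM in cKO (729 UMIs in 2931 cells). The log2 ratio was -0.66 (-0.80 to -0.51), or -0.46 relative to the median gene, and it did not reach the 2-fold threshold. The thinned share of cells with a UMI was 20.4% in Ctrl and 12.4% in cKO. Six2 was lower in each division of the gate that was examined. In cells with Foxf2, a forkhead factor of facial mesenchyme, it was at 39.7 UPM in Ctrl and 24.4 UPM in cKO, and in cells without Foxf2 at 20.04 and 13.3 UPM. The log2 ratios were -0.72 with and -0.51 without Foxd1, -0.61 with and -0.68 without Crym, and -0.70 with and -0.59 without Foxf2. In the cells outside the mesenchyme gate the log2 ratio was 0.20.

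**Figure D2:**
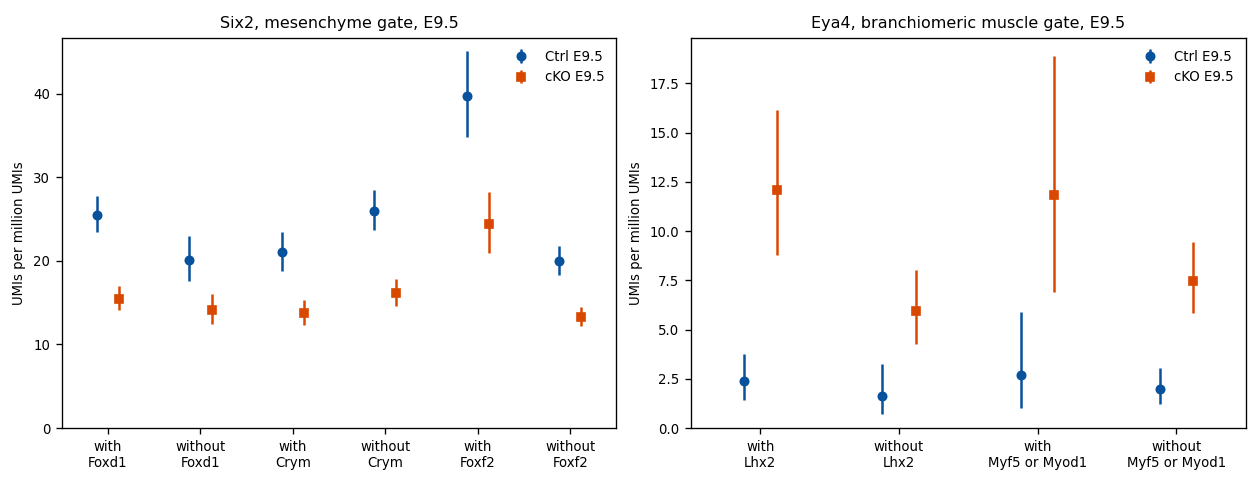
Levels (UPM) in Ctrl and cKO at E9.5 for Six2 in mesenchyme-gated cells divided by detection of Foxd1, Crym or Foxf2, and for Eya4 in muscle-gated cells divided by detection of Lhx2 or of Myf5 or Myod1. Bars are exact 95% Poisson intervals. Six2 lies lower in cKO and Eya4 higher in cKO in each pair.

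The same gate went the other way at E8.5. Mesenchyme-gated cells held Six2 at 38.3 UPM in Ctrl (68 UMIs in 92 cells) and 62.8 UPM in cKO (181 UMIs in 122 cells), a log2 ratio of 0.71 (0.30 to 1.14). The ratio over all cells at this stage, 0.46, lay inside that interval, so the rise was not particular to mesenchyme. The thinned share was 27.5% in Ctrl and 45.1% in cKO. The MLP gate was at 37.4 UPM in Ctrl and 49.99 UPM in cKO (log2 ratio 0.42, 0.06 to 0.78, but -0.034 relative to all other cells), and cells in no gate had a log2 ratio of 0.61 (0.37 to 0.86). In the BrM gate the levels were 41.3 and 49.4 UPM (0.26, -0.04 to 0.56) and in the somitic gate 26.9 and 33.8 UPM (0.33, -0.03 to 0.70), so in both the interval included no change. The point estimate was above 0 in all 5 of these cell groups and below 2-fold in each.

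In other gates at E9.5 the point estimate of Six2 in cKO was at the Ctrl level or above it. MLP-gated cells held it at 37.7 UPM in Ctrl (59 UMIs in 94 cells) and 37.7 UPM in cKO (257 UMIs in 371 cells), with a log2 ratio of 0.00 (-0.41 to 0.43). In the BrM gate it was at 18.6 and 23.1 UPM (0.31, 0.05 to 0.57), and in the epithelial gate at 12.8 and 19.8 UPM (0.63, 0.24 to 1.01). In the aSHF gate, which feeds the outflow tract, it was at 16.4 and 19.7 UPM (0.27, -0.24 to 0.79). Cells in no gate had a log2 ratio of -0.46 (-0.70 to -0.22), in the direction of mesenchyme.

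Within Ctrl, Six2 was lower at E9.5 than at E8.5 in the BrM gate. The level was 41.3 UPM at E8.5 (154 UMIs in 181 cells) and 18.6 UPM at E9.5 (238 UMIs in 657 cells), a log2 ratio of -1.15 (-1.45 to -0.85), while the median gene of this gate was at 0.31. It was the only member called in this gate between the stages, where 2.83% of all genes were called lower and 10.7% higher. The level moved little in the MLP gate (log2 ratio 0.01, -0.48 to 0.49) and in the somitic gate (0.12, -0.27 to 0.51). Endothelial cells were at 18.0 UPM (23 UMIs in 59 cells, 9 of them in 1 cell) and 2.93 UPM (24 UMIs in 399 cells), which was called lower (-2.61, -3.50 to -1.72). Asking for 1 marker more gave -0.50 there. Of 4 members compared in endothelial cells Six2 and Six4 were called lower, with 3.32% of all genes called lower and 10.1% higher.

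The stages were also compared within cKO, a comparison added after the data were seen, in which the libraries differ in gene table as well as in dissection. Over all cells Six2 was at 44.4 UPM at E8.5 and 17.1 UPM at E9.5 (log2 ratio -1.37, -1.48 to -1.26), and it was called lower, as were 5.47% of all genes, with 9.73% higher. It was called lower in the BrM gate too (49.4 and 23.1 UPM, -1.10, -1.36 to -0.84), where 4.57% of genes were called lower and 6.08% higher. The same held in the somitic gate (33.8 and 8.19 UPM, -2.05, -2.48 to -1.63), with 4.11% lower and 7.91% higher. Mesenchyme was at 62.8 and 15.0 UPM (-2.06, -2.30 to -1.82), with 4.96% of genes called lower and 6.04% higher. Cells in no gate had a ratio of -1.65 (-1.90 to -1.39), with 5.37% lower and 7.9% higher. MLP-gated cells, at 49.99 and 37.7 UPM, were not called.

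Six4 encodes a SIX-family factor that acts with EYA proteins in muscle progenitors and sensory placodes. Over all cells it was at 16.1 UPM in Ctrl and 19.0 UPM in cKO at E8.5, and at 18.5 and 17.7 UPM at E9.5. All 4 libraries thus lay within a narrow range. The log2 ratios of cKO to Ctrl were 0.24 (0.05 to 0.43) at E8.5 and -0.07 (-0.16 to 0.03) at E9.5. At E9.5 in Ctrl it was highest in the epithelial cells outside the endoderm, otic and surface ectoderm gates at 30.6 UPM (27.1 to 34.5), followed by otic cells at 27.0 UPM (19.5 to 36.5) and endoderm at 23.5 UPM (15.2 to 34.7). It was lowest in endothelial cells, at 4.40 UPM (3.08 to 6.09), and 9 of 10 neighbours in the order had intervals that included no difference. BrM (19.3 UPM), mesenchyme (19.4 UPM), MLP (18.5 UPM) and somitic cells (16.2 UPM) were close together. No gate was called for Six4 in either genotype comparison. Between the stages in Ctrl, Six4 was called lower in endothelial cells, at 11.7 UPM at E8.5 (15 UMIs in 59 cells) and 4.40 UPM at E9.5 (36 UMIs in 399 cells), a log2 ratio of -1.41 (-2.32 to -0.44) that was 0.63 in thinned cells. The one gate group whose genotype interval excluded no change at E9.5 was the same remainder of the epithelial cells, at 30.6 UPM in Ctrl and 23.0 UPM in cKO (log2 ratio -0.42, -0.82 to -0.03). The median gene of this group was at -0.20, inside that interval, so Six4 was not set apart from the general shift there.

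**Figure D3:**
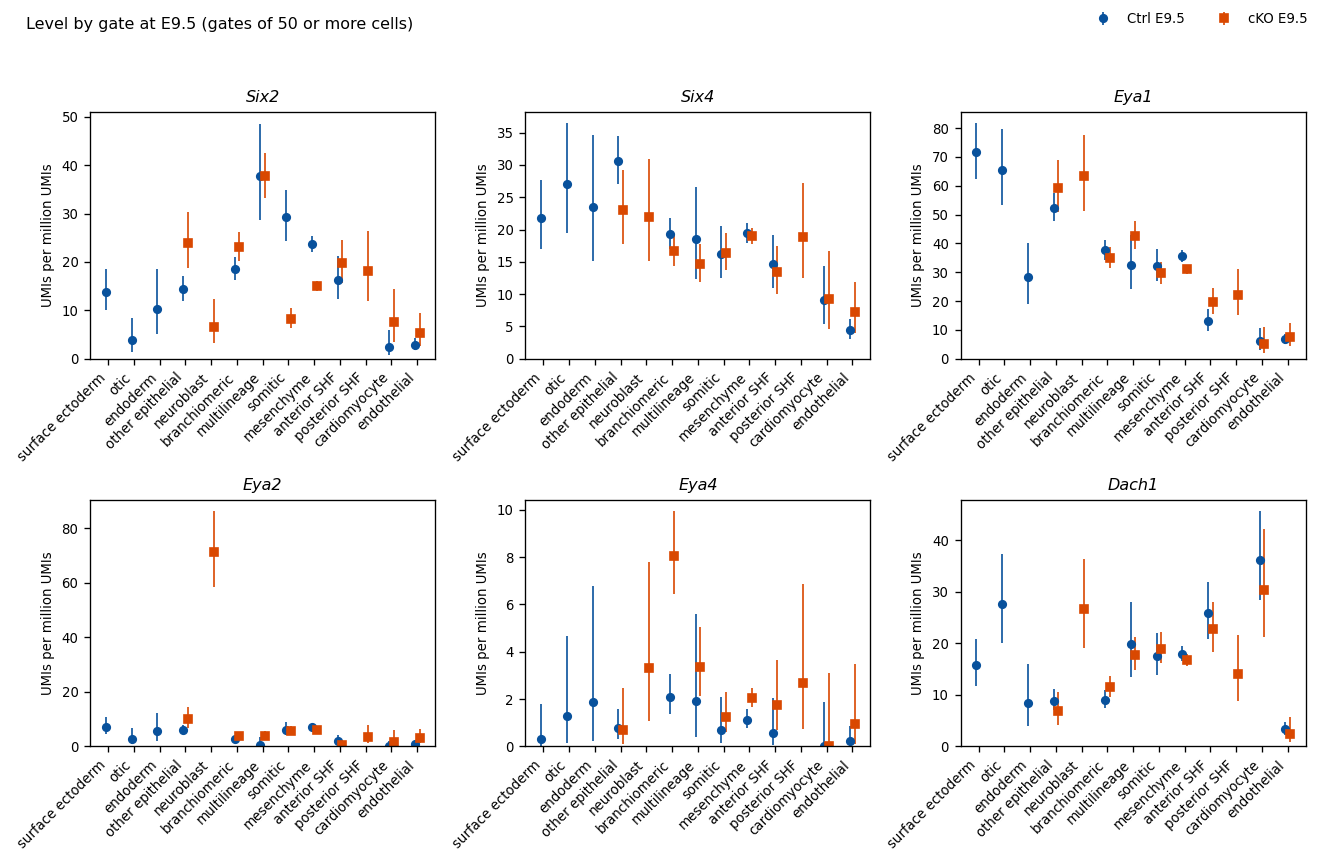
Level of each member (UPM, linear axis) in every gate with at least 50 cells at E9.5, Ctrl and cKO side by side, with exact 95% Poisson intervals. Dach1 is highest in cardiomyocytes (36.2 UPM in Ctrl), Eya1 in surface ectoderm of Ctrl (71.6 UPM), Eya2 in neuroblasts of cKO (71.4 UPM) and Eya4 in branchiomeric muscle of cKO (8.06 UPM).

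Eya1, the EYA coactivator whose loss affects the ear, thymus and kidney, was at 22.5 UPM in Ctrl and 26.8 UPM in cKO at E8.5 over all cells, and at 35.1 and 32.7 UPM at E9.5. The E9.5 libraries were both above the E8.5 libraries. The log2 ratio of cKO to Ctrl was 0.25 (0.09 to 0.42) at E8.5 and -0.10 (-0.17 to -0.03) at E9.5, where centring on the median or TMM factors turned it to 0.16. Between the stages in Ctrl it was 0.64 (0.51 to 0.77), against a median gene of 0.38.

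Among gates with at least 50 cells, surface ectoderm and otic cells held the most Eya1 in Ctrl at E9.5. In Ctrl the level was 71.6 UPM (62.5 to 81.6) in surface ectoderm, 65.6 UPM (53.5 to 79.7) in otic cells and 52.4 UPM (47.8 to 57.3) in the other epithelial cells. Surface ectoderm held 2.12-fold more than the remaining cells. BrM followed at 37.6 UPM (34.3 to 41.1) and mesenchyme at 35.6 UPM (33.6 to 37.7), which do not differ beyond their intervals. Endothelial cells (6.72 UPM) and cardiomyocytes (6.04 UPM) were lowest. In cKO the neuroblast gate was highest at 63.4 UPM (51.3 to 77.5), and the 21 neuroblasts of Ctrl held 81.1 UPM (54.7 to 116), whereas cKO cardiomyocytes were at 5.07 UPM.

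No genotype difference of Eya1 within a gate was called. At E9.5 the BrM gate was at 37.6 UPM in Ctrl and 34.9 UPM in cKO (log2 ratio -0.11, -0.31 to 0.09), mesenchyme at 35.6 and 31.1 UPM (-0.20, -0.31 to -0.09), and the MLP gate at 32.6 and 42.7 UPM (0.39, -0.04 to 0.85). The mesenchyme value is close to the median shift of that gate, and it was 0.00 with TMM factors. The median gene of the MLP gate was at -0.23, below the whole interval of Eya1 there. The aSHF gate was at 13.0 UPM in Ctrl and 19.7 UPM in cKO (0.60, 0.06 to 1.16), and this ratio turned negative in thinned cells (-0.055) and when the gate asked for 1 marker more (-0.31) or 1 fewer (-0.25). At E8.5 the intervals of the BrM, MLP, somitic and mesenchyme gates all included no change. In Ctrl, Eya1 in the BrM gate was at 22.5 UPM at E8.5 and 37.6 UPM at E9.5 (log2 ratio 0.74, 0.40 to 1.09), opposite in direction to Six2 in the same cells.

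Eya2, an EYA coactivator known from muscle precursors and cranial placodes, was low over all cells, at 4.87 UPM in Ctrl and 5.95 UPM in cKO at E8.5 and at 5.66 and 6.17 UPM at E9.5. The intervals of the 4 libraries overlapped. The log2 ratios of cKO to Ctrl were 0.29 (-0.07 to 0.64) and 0.12 (-0.04 to 0.29). Neuroblasts, young neurons, were the exception at E9.5. In cKO 67 such cells held 107 Eya2 UMIs, or 71.4 UPM (58.5 to 86.3), which was 13.7-fold above the remaining cells. The 21 neuroblasts of Ctrl, too few to be compared, held 61 UMIs, or 165 UPM (126 to 212). The next gate in cKO was the remainder of the epithelial cells at 9.94 UPM.

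MLP-gated cells differed in their Eya2 level between stages and libraries. The levels were 9.85 UPM in Ctrl (25 UMIs in 130 cells) and 9.60 UPM in cKO (39 UMIs in 145 cells) at E8.5, and 0.639 UPM in Ctrl (1 UMI in 94 cells) and 3.81 UPM in cKO (26 UMIs in 371 cells) at E9.5. Ctrl at E9.5 stood lowest. From E8.5 to E9.5 the log2 ratio in Ctrl was -3.95 (-9.31 to -1.34), and Eya2 was the only member called in this gate, where 2.53% of all genes were called lower and 10.1% higher. In cKO the stage ratio was -1.33 (-2.11 to -0.58), also called lower, where 4.84% of all genes were called lower and 6.99% higher. The genotype ratio at E9.5 was 2.58 (-0.03 to 7.94), an interval that included no change. In that comparison 2.44% of all genes were called higher, 5.89% lower, and none of the 6 members. In the epithelial gate at E9.5 Eya2 was at 5.83 UPM in Ctrl and 10.9 UPM in cKO (0.90, 0.35 to 1.43), under the 2-fold threshold without centring. The median gene of this gate was at -0.20, so the absence of a call for Eya2 depends on the scale. None of the 5 members compared in that gate was called, with 2.76% of all genes called higher and 4.67% lower.

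Eya4, an EYA coactivator linked to inherited hearing loss in humans, had few UMIs. Over all cells it had 12 UMIs in Ctrl (0.476 UPM) and 12 in cKO (0.466 UPM) at E8.5. At E9.5 it had 108 UMIs in Ctrl (1.15 UPM) and 278 in cKO (2.66 UPM). The cKO E9.5 library thus stood above the other 3. Its log2 ratio to Ctrl was 1.21 (0.89 to 1.55), or 2.32-fold. Eya4 was the only one of the 6 members called over all cells, where 3.32% of all genes were called higher and 9.4% lower. At E8.5, with 12 UMIs each, the ratio was -0.03 (-1.31 to 1.25). None of the 6 members was called over all cells at that stage, with 2.53% of all genes called higher and 1.09% lower. Between the stages in Ctrl the ratio was 1.27 (0.41 to 2.27), again the only member called, in a comparison where 16.0% of genes were called higher and 2.81% lower.

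The difference in Eya4 was largest, among the gates with enough UMIs to be compared, in the BrM gate. The gate held 27 Eya4 UMIs in 657 Ctrl cells, or 2.11 UPM (1.39 to 3.06), and 87 UMIs in 521 cKO cells, or 8.06 UPM (6.45 to 9.94). The intervals did not overlap. The log2 ratio was 1.94 (1.30 to 2.62), or 3.82-fold, and Eya4 was the only one of 6 members called in this gate, where 2.76% of all genes were called higher and 5.72% lower. After thinning, 2.26% (1.24 to 3.77) of Ctrl cells and 8.12% (5.89 to 10.9) of cKO cells kept an Eya4 UMI. The median depth of the gate was 18560 UMIs per cell in Ctrl and 19318 in cKO. In the endothelial gate the share was 0 of 376 thinned cells in Ctrl, which allows up to 0.798%, and 1.98% of 101 cells in cKO. The most Eya4 UMIs in any BrM cell was 1 in Ctrl and 3 in cKO.

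Eya4 was higher in cKO whether or not BrM cells showed other muscle genes. In cells with Lhx2, a LIM homeodomain factor of head muscle progenitors, it was at 2.39 UPM in Ctrl and 12.1 UPM in cKO, and in cells without it at 1.64 and 5.94 UPM. In cells with Myf5 or Myod1, the myogenic factors that start muscle differentiation, it was at 2.71 UPM in Ctrl (6 UMIs) and 11.8 UPM in cKO (17 UMIs), and in cells without either at 1.98 and 7.48 UPM. Myf5 itself was at 12.1 UPM in Ctrl and 7.04 UPM in cKO in this gate. The log2 ratio of Eya4 was 2.73 when the gate asked for 1 marker more.

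Eya4 was not higher in BrM alone. In all cells outside the BrM gate its log2 ratio was 1.03, and 0.90 remained for the BrM gate after this was subtracted, which is below 2-fold. Mesenchyme was at 1.13 UPM in Ctrl (37 UMIs) and 2.04 UPM in cKO (99 UMIs), a log2 ratio of 0.85 (0.29 to 1.44) that was -0.62 relative to all other cells. The MLP gate had 3 UMIs in Ctrl and 23 in cKO (0.82, -0.91 to 3.20), and the epithelial gate 12 and 2 UMIs. Cardiomyocytes held 0 UMIs in both libraries, which allows up to 1.51 UPM in Ctrl and 2.53 UPM in cKO. In each E9.5 library the BrM gate ranked highest for Eya4, 2.12-fold above the remaining cells in Ctrl and 3.96-fold in cKO. All 10 pairs of neighbours in the Ctrl order had an interval that included no difference, so the rank of the BrM gate in Ctrl is not settled. At E8.5 the same gate held 3 UMIs in Ctrl and 2 in cKO, at which depth no difference could be detected. From E8.5 to E9.5 in cKO Eya4 was called higher over all cells (12 and 278 UMIs, 2.51, 1.68 to 3.48), with 9.73% of all genes called higher and 5.47% lower. It was called higher in the BrM gate (2 and 87 UMIs, 4.34, 2.44 to 7.41), with 6.08% of genes higher and 4.57% lower. The MLP gate was called too (3 and 23 UMIs, 2.19, 0.46 to 4.57), with 6.99% higher and 4.84% lower. So was mesenchyme (1 and 99 UMIs, 2.56, 0.045 to 7.87), with 6.04% higher and 4.96% lower, a call that rests on 1 UMI at E8.5.

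**Figure D4:**
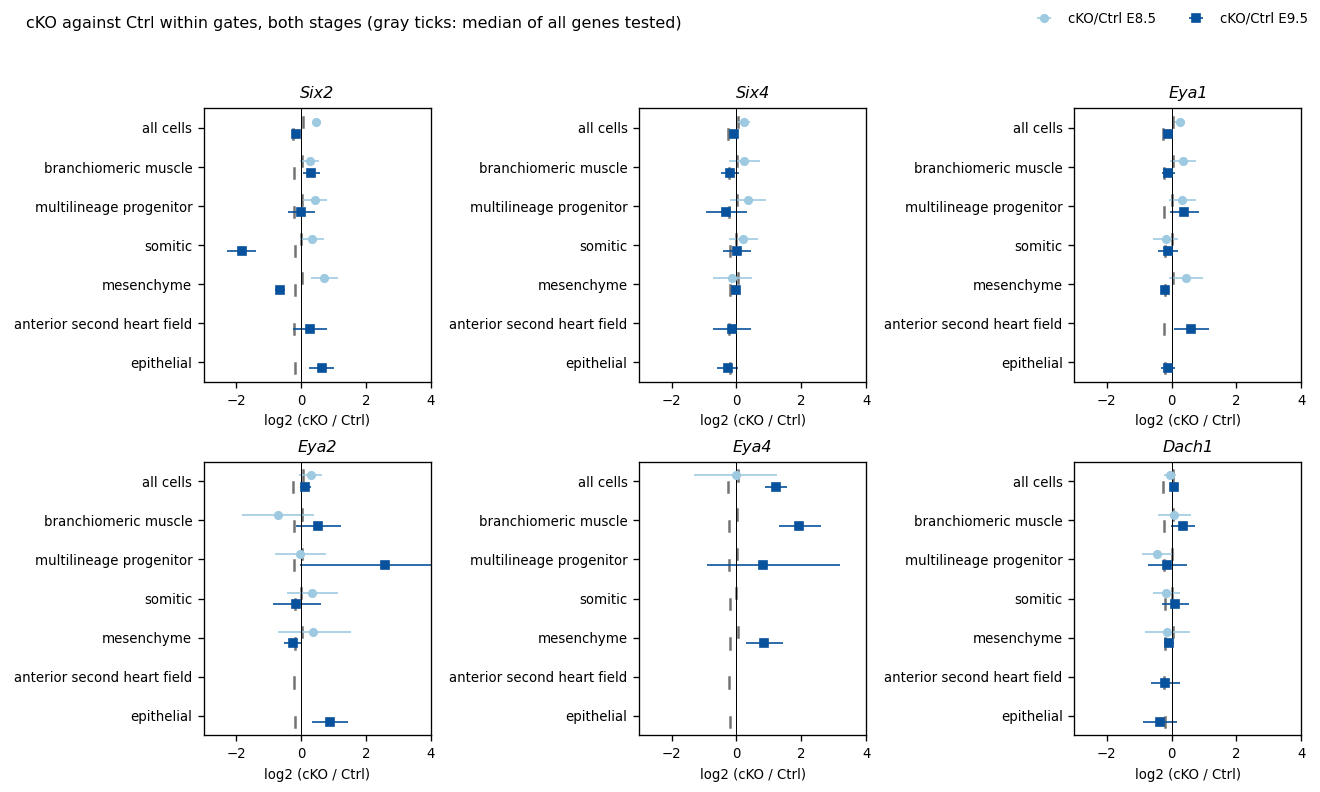
Log2 ratio of cKO to Ctrl for each member by gate at E8.5 and E9.5, drawn where both sums together held at least 20 UMIs, with exact conditional 95% intervals and gray ticks at the median of all genes in that comparison. Eya4 in branchiomeric muscle (1.94) and Six2 in the somitic gate (-1.84) lie farthest from the ticks among the called values at E9.5, and the upper interval of Eya2 in the multilineage progenitor gate runs past the axis.

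Dach1, the corepressor of the network, showed no called difference between genotypes. Over all cells it was at 18.1 UPM in Ctrl and 17.6 UPM in cKO at E8.5, and at 15.0 and 15.9 UPM at E9.5. The ratios were -0.04 (-0.23 to 0.15) and 0.08 (-0.02 to 0.19), so that changes of 2-fold are outside both intervals. At E9.5 it was highest in cardiomyocytes, at 36.2 UPM (28.3 to 45.6) in Ctrl and 30.4 UPM (21.3 to 42.1) in cKO, which was 2.50-fold and 1.94-fold above the remaining cells. The 21 neuroblasts of Ctrl held 20 UMIs, or 54.0 UPM. Otic cells (27.7 UPM) and the aSHF gate (25.9 UPM) followed in Ctrl, without a difference beyond their intervals. Endothelial cells were lowest, at 3.30 UPM in Ctrl and 2.42 UPM in cKO. Cardiomyocytes and endothelial cells thus stood at opposite ends for Dach1, whereas both were low for Six2 and Eya1.

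In the progenitor gates Dach1 was lower at the later stage of Ctrl. The BrM gate was at 15.3 UPM at E8.5 and 9.05 UPM at E9.5 (log2 ratio -0.76, -1.23 to -0.27), the somitic gate at 25.1 and 17.6 UPM (-0.51, -0.97 to -0.07), and the MLP gate at 30.3 and 19.8 UPM (-0.62, -1.27 to 0.00). None was called, while the median gene of these gates was above 0. The somitic ratio was 0.020 in thinned cells and 0.016 when the gate asked for 1 marker fewer. At E8.5 the MLP gate was at 30.3 UPM in Ctrl and 22.2 UPM in cKO (-0.45, -0.91 to 0.01). At E9.5 the gate was at 19.8 and 17.7 UPM.

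At E8.5 no gate held a called member. In each of the BrM, MLP, somitic and mesenchyme gates 5 members had enough UMIs, Eya4 being the one left out. The share of all genes called higher and lower was 2.79% and 1.21% in the BrM gate, 3.09% and 1.16% in the MLP gate, 1.98% and 1.29% in the somitic gate, and 3.16% and 0.894% in mesenchyme. At E9.5 in mesenchyme, with 3.42% of genes called higher and 4.17% lower, none of 6 members was called. The median gene of this gate was at -0.20, and for Eya4 the absence of a call depends on the scale.

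The network beyond the members was followed through 32 genes in 4 lists, namely 5 further family members, 9 cofactors such as Ski, Tle1 and Sobp, 7 PAX partners, and 11 genes reported as targets. These lists were chosen with earlier results of these data known. Their counts and medians therefore describe the listed genes and are no independent evidence of a change in the network. At E8.5, 26 were compared over all cells, of which 2 were called higher and none lower (2.53% and 1.09% of all genes), namely Neurog1, a proneural factor (1 UMI in Ctrl and 20 in cKO), and the family member Six6 (log2 ratio 1.82). In the BrM gate 18 were compared (2.79% of all genes higher, 1.21% lower), Six5 (1.29) being called higher and Fgf10, a growth factor of the pharyngeal mesoderm, lower (26.6 UPM in Ctrl, 12.4 UPM in cKO, -1.10). In the MLP gate the calls were Tle4 (2.38), Pax3 (1.97) and Pax9 (1.32) higher and Ezr (-1.13) lower, of 19 (3.09% and 1.16% of all genes). In the somitic gate the one call of 18 was Fgf8 (-1.35), against 1.29% of all genes lower and 1.98% higher, and in mesenchyme Fgf8 (-1.85) was lower and Sobp (1.39) and Ski (1.07) higher, of 18 (0.894% of all genes lower, 3.16% higher). The median log2 ratio of the list over all cells was 0.21, against 0.04 for all genes.

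At E9.5, 8 of 29 network genes were called lower over all cells and 2 higher, where 9.4% of all genes were called lower and 3.32% higher. Their median was -0.53 against -0.26 for all genes. Pax7 (-2.74), Pax1 (-2.36) and Fgf8 (-2.03) were lowest, and Neurod1, a neuronal differentiation factor, was higher (1.71). These ratios over all cells also hold differences in the shares of the gates. Pax1, for example, was called higher in the somitic gate (2.04) and lower in cells of no gate. In the BrM gate 4 of 24 were called higher and 3 lower (2.76% and 5.72% of all genes), with a median of -0.29 against -0.23. Fgf10 was at 24.1 UPM in Ctrl and 5.65 UPM in cKO (-2.09), so that it was lower in cKO in this gate at both stages. Neurog1 (3.83), Neurod1 (3.25) and Pax8 (2.91) were higher, at 2.22, 2.22 and 3.52 UPM in cKO. The cKO library held more neuroblasts than Ctrl, 67 cells against 21, and its endothelial cells also had Neurog1 UMIs, 17 against 2. The part of such neuronal RNA in these gates was not tested.

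The other gates at E9.5 had their own calls. In the MLP gate 3 of 20 were higher, among them Pax8 (2.21) and the corepressor Tle4 (1.18), and 4 lower, among them Fgf10 (11.5 UPM in Ctrl, 3.08 UPM in cKO, -1.90) and Fgf8 (-1.76), where 2.44% of all genes were higher and 5.89% lower. In the somitic gate 5 of 20 were higher and none lower (3.11% and 4.66% of all genes). Pax3 led them with 89 UMIs against 0, which is at least 15.5-fold higher against a floor of 3 counts, followed by Neurog1 (2.69), Pax1 (2.04) and Fgf8 (3 UMIs in Ctrl and 23 in cKO). In mesenchyme 3 of 26 were higher, Pax3 (1 UMI in Ctrl and 28 in cKO), Neurod1 (2.55) and Pax8 (1.93), and 2 lower, among them Fgf8 (-1.35), against 3.42% and 4.17% of all genes. In the epithelial gate Neurod1 (2.34) and Neurog1 (1.93) were higher and Pax9 (-1.81) and Fgf10 (-1.58) lower, of 25 (2.76% and 4.67% of all genes). The lists' median was -0.45 in the MLP gate and -0.36 in the epithelial gate, against -0.23 and -0.20 for all genes. In the somitic gate (-0.21) and in mesenchyme (-0.23) it was close to the median of all genes, -0.20 in each.

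Between the stages in Ctrl, 10 of 29 network genes were called higher over all cells and 3 lower (16.0% and 2.81% of all genes), with a median of 0.56 against 0.38 for all genes. Neurog1 (1 UMI at E8.5 and 472 at E9.5), Neurod1 (3 and 502 UMIs) and Pax1 (5.51) were higher and Six3 (-4.88) lower. In the BrM gate 3 of 20 were higher and 1 lower (10.7% and 2.83% of all genes). Myf5 had 0 UMIs at E8.5 and 155 at E9.5, Six5 (1.47) and the corepressor Tle1 (1.43) were higher, and Fgf8 (-1.73) was lower. Of 18 genes compared in the MLP gate, Pax9 (1.96), Tle4 (1.70) and Tle1 (1.62) were higher and none lower (10.1% and 2.53% of all genes). In endothelial cells 2 of 15 were lower, Fgf8 (-1.52) and Sobp (-1.41), and none higher (3.32% and 10.1% of all genes). Over all cells of cKO 7 of 29 were higher and 6 lower (9.73% and 5.47% of all genes), among them Six3 (-6.35) lower and Neurod1 (3 UMIs at E8.5 and 1822 at E9.5) higher.

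The likeness of the members to each other and to other genes was measured as Pearson's r of log2(UPM + 10) over 35 profiles, each a gate in 1 library. These are descriptions over gates that share libraries and depth, and no p is given. Six4 and Eya1 were the most alike pair of members (r = 0.83), followed by Eya1 and Eya2 (0.53), and all other pairs lay between -0.13 and 0.43. Of 7144 candidates, the 3 most like Six2 were Irx5 (0.829), Sgol1 (0.820) and E130012A19Rik (0.797). For Six4 they were Greb1 (0.838), Rhebl1 (0.825) and Wasf3 (0.813), and for Eya1 H2afx (0.837) and Trim2 (0.817) were among the 3 most alike. The genes most like Eya2 were Tlx2 (0.852), Nefm (0.849) and Nefl (0.838). The 1 neuroblast profile, at 71.4 UPM of Eya2, stood far above all others, and r without it was not computed. For Dach1 they were Dcbld2 (0.719), Rragd (0.676) and Smim8 (0.656). Eya4, with a mean of 1.27 UPM, was most like Rnf122 (0.717), Naca (0.704) and Rps3 (0.685), and at so low a level little can be read from it.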

How the data were processed

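Droplet-based 3′ libraries from sorted cells were processed by the authors with Cell Ranger 3.1.0 per the labels (3.0.2 in the matrix headers of both E8.5 files) on mm10 (GRCm38). The deposited values are raw UMI counts per gene and cell, not normalized, and all deposited cells were used. Counts were summed per gate and library over the 27514 shared genes. Levels carry exact Poisson intervals, ratios exact conditional binomial intervals and shares Clopper-Pearson intervals, all at 95%. A count of 0 was given a floor of 3 counts. For shares, cells were thinned to 10000 UMIs within the gates set at full depth, and shallower cells were left out. For ratios in thinned cells, the gates were set again on the thinned counts. No test was made, since each group had 1 library and so no replicate. A fit additive in genotype and stage was not run.

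Cells went to the first gate they passed. Gates asked for 2 to 4 of 5 or 6 markers, and this number was set after the markers' levels and cell counts, but not the members' values, had been seen. No doublet caller was run. An alternative left out cells above 2 times the library's median UMIs. Members and lists were chosen with earlier results of these data known. Named network genes are up to 4 called genes per comparison with the largest change, and the likeness search took candidates with a mean of at least 10 UPM. Not every gene of the family is reported here. Promoter windows and coordinates came from RefSeq tables of GRCm38.p6. Python 3.11.15, numpy 2.4.6, scipy 1.17.1, R 4.3.3, edgeR 4.0.16 (TMM factors only) and matplotlib 3.10.9 were used. The ratio procedure was tested on simulated sums that held counting error only, as the intervals assume. Variation between cells, embryos or libraries was not simulated, so that test says nothing about it.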

Additional observations from a re-analysis of the deposited data

Results flagged for a closer look

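Six2 and Eya1 had genotype differences of opposite direction at the 2 stages, with intervals that excluded no change at each. With 1 library per group these differences between the stages were not tested. Over all cells the log2 ratio of cKO to Ctrl was 0.46 at E8.5 and -0.15 at E9.5 for Six2, and 0.25 and -0.10 for Eya1. The E9.5 values of both lie above the median of all genes at that stage and become positive when centred on it. In mesenchyme-gated cells the Six2 ratio was 0.71 at E8.5 and -0.66 at E9.5, and in cells that passed no gate it was 0.61 and -0.46. These remain on opposite sides of the median gene of their comparison.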

How the results depend on the processing

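No paired analysis was possible because the groups share fewer than 2 replicate numbers, each holding 1 library, so no replicate could be left out either. Of 163 log2 ratios, none moved beyond its interval or changed sign without low-quality cells, without deep cells or as means over cells. The same held for the 162 recomputed without shared barcodes and for 22 recomputed with the muscle gate on 3 genes. Scaling mattered at E9.5 over all cells. With TMM factors the ratios became 0.11 (Six2), 0.19 (Six4), 0.16 (Eya1), 0.38 (Eya2) and 0.34 (Dach1), and median centring gave 0.11, 0.19, 0.16, 0.38 and 0.34. In mesenchyme both gave -0.46 for Six2, and TMM gave 0.0030 for Eya1. Over all cells between the stages in Ctrl, Six4 became -0.12 with TMM and -0.18 with centring. In thinned cells Six2 over all cells was 0.62 at E8.5 and -0.27 at E9.5, Eya2 at E9.5 was -0.065, Eya1 in aSHF was -0.055, and between the stages in Ctrl Six4 in endothelial cells was 0.63 (-1.41 without thinning) and Dach1 in somitic cells 0.020. With 1 marker more, Eya4 in BrM was 2.73, Eya1 in aSHF -0.31 and Eya1 in endothelial cells between the stages 1.00003. With 1 fewer, Eya1 in aSHF was -0.25 and Dach1 in somitic cells between the stages 0.016. The settings that follow were chosen after seeing the data, as were all those of the stages in cKO, the muscle gate on 3 genes and the division of mesenchyme by marker genes. In cells passing exactly 1 gate, Six2 in somitic cells at E9.5 was -0.31, from fewer cells. With the ratio of all other cells subtracted, Eya4 in BrM was 0.90, Six2 in mesenchyme -0.85 and Eya4 in mesenchyme -0.62 at E9.5, and Six2 in the MLP gate at E8.5 was -0.034. Between the stages in cKO, Eya1 in BrM became -0.056 in cells of exactly 1 gate, Six4 in the MLP gate 0.13 with 1 marker more, and Eya1 in cells of no gate -0.67 with 1 fewer. The cause of these shifts was not tested. In all, keeping cells of exactly 1 gate moved 17 and reversed 1 of 112 ratios, 1 marker fewer moved 23 and reversed 3 of 138, 1 more moved 25 and reversed 3 of 135, and thinning moved 25 and reversed 3 of 158. Depth limits Eya4 at E8.5, where each library held 12 UMIs.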
